A study of Homo sapiens with 6 samples.

Results

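Expression of 10 genes of fatty acid synthesis and desaturation was compared between 2 human breast cancer cell lines. The genes were ACLY, ACACA, FASN, SCD, SCD5, FADS1, FADS2, ELOVL5, ELOVL6 and ACSL3, chosen by symbol among the 61541 genes of the table. Of these, 9 had enough counts to be tested, and 14176 genes were tested in all. The lines were MDA-MB-231-D3H2LN (3 libraries; hereafter MDA231-LN) and the parental MDA-MB-231 (3 libraries), a triple-negative line with mesenchymal features. MDA231-LN is a commercial subline, known to carry luciferase and to derive from a lymph node metastasis that the line formed in mice. The labels name no treatment, and both lines grew in the same high-glucose medium with 10% serum. Each line is a single cell line, and nothing in the labels says that its libraries came from separate cultures, so p-values measure the spread between these libraries, which may be technical. The series as a whole concerns JAGGED-1 in the spread of breast tumor cells to lymph nodes.

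Cells make saturated fatty acids from citrate. ACLY splits citrate to give cytosolic acetyl-CoA, ACACA carboxylates it to malonyl-CoA, and FASN joins these units into palmitate. ELOVL6 lengthens palmitate to stearate, SCD and its paralog SCD5 put the first double bond in to give oleate and palmitoleate, and ACSL enzymes such as ACSL3 link fatty acids to coenzyme A. FADS2, FADS1 and ELOVL5 serve mainly the other branch, in which dietary polyunsaturated fatty acids are desaturated and lengthened. Many of these genes are known targets of the transcription factor SREBP-1, which SREBF1 encodes.

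The MDA231-LN libraries held 17661542 to 18882719 counted fragments and the parental libraries 16461578 to 19171017. Levels are given as CPM, counts scaled to library size by TMM, and differences as log2 fold changes of MDA231-LN over parental with their standard error. The threshold was an adjusted p of 0.05 in the edgeR quasi-likelihood test, with Benjamini-Hochberg adjustment over all tested genes. Of all tested genes, 62.8% passed, 31.6% as higher and 31.2% as lower in MDA231-LN, so passing alone does not set a gene apart. Of 9 breast line markers 7 were tested: VIM, KRT19 and ESR1 passed as higher, KRT18 as lower, and 3 did not pass. The mesenchymal marker VIM averaged 1993 CPM in MDA231-LN and 1091 CPM in the parental line. With 1 library left out at a time, the log2 fold change was 0.363 to 0.412 for KRT19 and -0.363 to -0.311 for KRT18. ESR1 averaged 0.951 CPM in MDA231-LN and 0.164 CPM in the parental line, PGR was at or near 0 in both, and ERBB2 averaged 89.8 CPM in MDA231-LN and 90.4 CPM in the parental line. The 6 adipocyte markers summed to 0.333 to 0.617 CPM in MDA231-LN libraries and 0 to 0.244 CPM in parental libraries; ADIPOQ and LEP were at 0 in all, and FABP4 and LIPE could not be measured because they lie inside other genes. Of 8 immune, endothelial and fibroblast markers 4 were tested, and 2 did not pass. COL3A1 passed as higher and PDGFRB as lower, at log2 fold changes of 5.35 to 7.84 and -1.41 to -1.0 with 1 library left out at a time. All 8 markers together summed to only 27.55 to 31.81 CPM in MDA231-LN libraries and 25.29 to 32.7 CPM in parental libraries. In bulk RNA, fewer cells expressing a gene and less of its RNA per cell cannot be told apart.

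Promoter windows of 300 bases around annotated starts were taken from RefSeq (GRCh38.p14) and were found for 9 of the 10 genes. FASN has no entry. The windows of 3 genes are printed because they belong to the genes with the 2 largest falls, SCD and FADS2, and to SCD5, the paralog of SCD that did not fall. Each is written 5′ to 3′ on the strand of the gene, and capitals mark CCAAT, the core bound by NF-Y, a factor known to act beside SREBP, or its complement ATTGG on the other strand. For FADS2 the second of 2 overlapping windows is shown.
SCD, chr10:100346983-100347282, strand +: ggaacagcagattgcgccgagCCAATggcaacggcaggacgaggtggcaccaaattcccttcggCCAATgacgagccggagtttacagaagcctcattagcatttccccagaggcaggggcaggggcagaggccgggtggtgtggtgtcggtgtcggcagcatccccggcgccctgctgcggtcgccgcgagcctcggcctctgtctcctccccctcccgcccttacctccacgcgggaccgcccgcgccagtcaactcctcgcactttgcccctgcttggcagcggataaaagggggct
SCD5, chr4:82798747-82799046, strand −: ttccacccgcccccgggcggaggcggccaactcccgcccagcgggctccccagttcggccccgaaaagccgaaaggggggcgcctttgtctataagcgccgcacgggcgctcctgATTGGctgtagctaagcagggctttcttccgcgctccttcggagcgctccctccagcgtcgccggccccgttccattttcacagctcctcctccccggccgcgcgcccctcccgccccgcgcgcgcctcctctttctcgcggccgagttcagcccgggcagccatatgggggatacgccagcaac
FADS2, chr11:61816154-61816453, strand +: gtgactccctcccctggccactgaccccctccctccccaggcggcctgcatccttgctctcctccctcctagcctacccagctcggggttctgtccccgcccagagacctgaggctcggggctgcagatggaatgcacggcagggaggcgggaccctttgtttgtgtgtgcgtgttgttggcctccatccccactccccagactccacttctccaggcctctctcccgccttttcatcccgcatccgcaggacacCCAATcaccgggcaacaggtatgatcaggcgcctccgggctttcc

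The SCD window held 2 CCAAT matches and the other printed windows 1 each. A CCAAT match on either strand was in at least 1 window of 7 of the 9 genes, against 39.7% of all 27305 genes with windows of this length. TCACNCCAC, a short form of the sterol regulatory element, was in none of the 13 windows of these genes, against 1.13% of all 35116 windows. CACGTG, an E-box, was in a window of ELOVL5 alone among the 9 genes, against 8.77% of all genes, and the GC box GGGCGG was in at least 1 window of 8 of the 9 genes, against 48.3% of all genes. Genes with several windows, such as ACACA, have more chances of a match. No motif contains another, a match is not a bound site, and no match says only that these letters are not in this window.

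FADS1 could not be measured. It had 0 counts in all 6 libraries, and 100% of its exonic bases lie inside another annotated gene. In the annotation used for counting, FADS1 (chr11:61799627-61829318, strand −) lies whole inside the span of FADS2 (chr11:61792980-61867354, strand +). The counting ignored strand and left out fragments that touch more than 1 gene, so fragments of FADS1 could be given to neither gene. FADS1 covers 39.9% of the FADS2 span, and all overlapping genes together, FEN1 among them, cover 48% of it. Counts of FADS2 therefore come from the rest of its span, exons and introns alike, which holds 83.8% of its exonic bases.

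**Figure D1:**
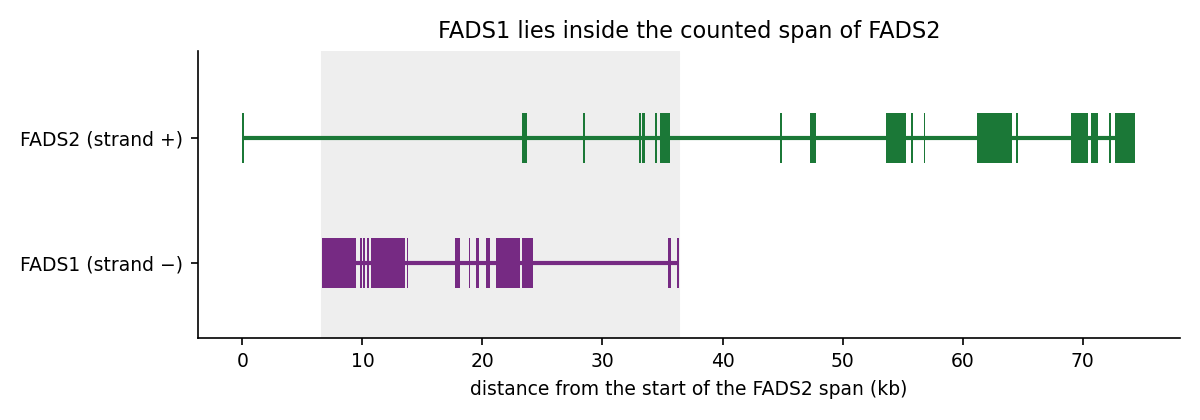
Annotated spans (lines) and exons (boxes) of FADS2 above and FADS1 below, as distance in kb from the start of the FADS2 span; the grey area is the part both genes share. FADS1 lies whole inside the FADS2 span and shares 39.9% of it; the other genes that overlap FADS2 are not drawn.

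The enzymes that turn citrate into palmitate were all lower in MDA231-LN, by 1.30- to 1.68-fold. ACLY (ENSG00000131473, chr17:41866917-41930542, strand −) had 525, 507 and 504 CPM in MDA231-LN libraries, against 666, 677 and 661 CPM in parental libraries. Every MDA231-LN library was below every parental one. The log2 fold change was -0.38 ± 0.05 (SE, adjusted p = 1.84e-07, edgeR). ACACA (ENSG00000278540, chr17:37084992-37406836, strand −), the rate-limiting carboxylase, had 119.9, 112 and 109.5 CPM in MDA231-LN, against 183, 167 and 203 CPM in the parental line. The lines did not overlap, though the parental libraries spread more widely. Its log2 fold change was -0.70 ± 0.07 (SE, adjusted p = 8.37e-10, edgeR). FASN (ENSG00000169710, chr17:82078338-82098294, strand −), the multifunctional synthase, had 755, 716 and 702 CPM in MDA231-LN, against 1284, 1142 and 1222 CPM in the parental line. Again no library of one line reached the other, and the log2 fold change was -0.75 ± 0.05 (SE, adjusted p = 2.66e-12, edgeR).

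SCD, which makes monounsaturated fatty acids, fell by a larger fold than the 3 enzymes upstream of it. SCD (ENSG00000099194, chr10:100347233-100364826, strand +) had 713, 726 and 748 CPM in MDA231-LN, against 1558, 1653 and 1682 CPM in the parental line. The highest MDA231-LN library was below the lowest parental one by a wide margin. The log2 fold change was -1.16 ± 0.05 (SE, adjusted p = 9.39e-17, edgeR), or 2.24-fold lower. SCD5 (ENSG00000145284, chr4:82629539-82798796, strand −) went the other way by a small step, with 39.2, 32.9 and 35 CPM in MDA231-LN, against 29.6, 31.1 and 28.5 CPM in the parental line. The lines did not overlap, but the lowest MDA231-LN library was close to the highest parental one. Its log2 fold change of 0.27 ± 0.09 passed (SE, adjusted p = 0.0140, edgeR), and it no longer passed without MDA231-LN replicate 1, where it was 0.19 with an adjusted p of 0.114. The count of SCD over that of SCD5 within a library averaged 20.5 ± 2.06 in MDA231-LN and 54.9 ± 3.60 in the parental line (SD, n = 3 each), with no overlap (exact permutation test, two-sided, p = 0.1, the smallest that 3 against 3 libraries allow).

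FADS2, the first desaturase of the polyunsaturated branch, had the largest difference of the measured genes. FADS2 (ENSG00000134824) had 118, 116 and 133 CPM in MDA231-LN, against 453, 479 and 465 CPM in the parental line. The highest MDA231-LN library was far below the lowest parental one. The log2 fold change was -1.93 ± 0.06 (SE, adjusted p = 9.87e-20, edgeR), or 3.81-fold lower, and 2.11% of all tested genes had a lower value. These counts come from the part of FADS2 that no other gene covers, on either strand. Its neighbour FADS3, a desaturase-like gene of the same cluster, averaged 40.0 ± 2.81 CPM in MDA231-LN and 108 ± 14.6 CPM in the parental line (SD, n = 3 each) and was also lower (log2 fold change -1.44 ± 0.08, SE, adjusted p = 6.96e-14, edgeR). The 196 other tested genes starting in the fixed 10-Mb window that holds FADS2, 60 to 70 Mb of chromosome 11, had a median log2 fold change of -0.01.

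The elongases moved apart. ELOVL5 (ENSG00000012660, chr6:53267398-53349179, strand −), which lengthens polyunsaturated fatty acids, had 321, 327 and 321 CPM in MDA231-LN, against 261, 277 and 269.5 CPM in the parental line. All MDA231-LN libraries were higher, with a log2 fold change of 0.26 ± 0.05 (SE, adjusted p = 8.39e-05, edgeR). ELOVL6 (ENSG00000170522, chr4:110045846-110199199, strand −), which acts on palmitate, had 89.5, 89.6 and 89.5 CPM in MDA231-LN, against 120.05, 123 and 115 CPM in the parental line. The lines did not overlap and the log2 fold change was -0.42 ± 0.06 (SE, adjusted p = 1.18e-06, edgeR). The count of ELOVL5 over that of ELOVL6 averaged 3.61 ± 0.036 in MDA231-LN and 2.25 ± 0.081 in the parental line (SD, n = 3 each), with no overlap (exact permutation test, two-sided, p = 0.1).

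ACSL3 (ENSG00000123983, chr2:222860942-222944639, strand +), an acyl-CoA synthetase of the endoplasmic reticulum and lipid droplets, had 133, 142 and 136 CPM in MDA231-LN, against 151, 145 and 151 CPM in the parental line. The lines did not overlap but lay close together. Its log2 fold change of -0.12 ± 0.06 did not pass (SE, adjusted p = 0.0661, edgeR), and it passed without parental replicate 2, at -0.15 with an adjusted p of 0.0359.

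**Figure D2:**
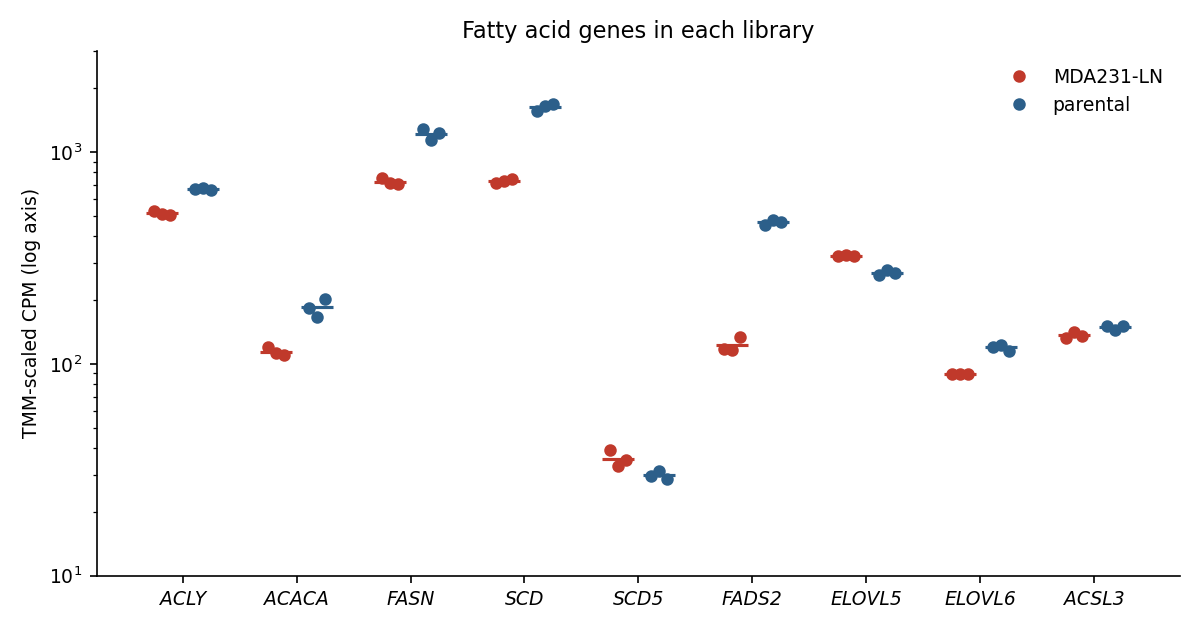
TMM-scaled CPM on a log axis for the 9 measured genes; each point is 1 library (MDA231-LN in red, left, and parental in blue, right) and each bar the mean of 3. SCD is near 729 CPM in MDA231-LN and 1631 CPM in the parental line, and FADS2 near 122 CPM in MDA231-LN and 466 CPM in the parental line.

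Of the 9 measured genes, 6 were lower in MDA231-LN (ACLY, ACACA, FASN, SCD, FADS2 and ELOVL6), 2 were higher (SCD5 and ELOVL5) and ACSL3 did not pass. Among all tested genes 31.2% passed as lower and 31.6% as higher. SCD and FADS2 were lower by at least 2-fold, which held for 7.53% of all tested genes. The libraries of the lines did not overlap for any of the 9 genes, against 66.6% of all tested genes. The median log2 fold change of the 9 was -0.42, beside 0.02 over all tested genes. With upper-quartile scaling the median over all tested genes was 0.13 and that of the 9 was -0.30; no gene of the 9 changed direction, and the same numbers passed. The 9 genes together took 2787 ± 24.4 CPM in MDA231-LN and 4732 ± 56.9 CPM in the parental line (SD, n = 3 each).

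Ratios of counts within a library need no scaling between libraries; 3 against 3 libraries allow no exact permutation p under 0.1 for them. FASN over ACACA averaged 6.36 ± 0.058 in MDA231-LN and 6.62 ± 0.526 in the parental line (SD, n = 3 each), and these overlapped. FASN over ACLY averaged 1.41 ± 0.022 in MDA231-LN and 1.82 ± 0.124 in the parental line, and SCD over FASN 1.01 ± 0.061 in MDA231-LN and 1.35 ± 0.12 in the parental line (SD, n = 3 each), both with no overlap. SCD over FADS2 was 5.98 ± 0.332 in MDA231-LN and 3.50 ± 0.102 in the parental line (SD, n = 3 each), also with no overlap. SCD thus took 26.2% of the counts of the 9 genes in MDA231-LN and 34.5% in the parental line, FADS2 4.39% in MDA231-LN and 9.84% in the parental line, and FASN 26.0% in MDA231-LN and 25.7% in the parental line.

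Several genes lie among neighbours that were shifted as a group. Tested genes starting in the same 10-Mb window had a median log2 fold change of 0.27 for SCD5, 0.25 for ELOVL5, 0.35 for ELOVL6 and 0.22 for ACSL3. SCD5 and ELOVL5 were at the level of their neighbours, at -0.000968 and 0.01 from the median. ELOVL6 was further below its neighbours (-0.77) than below 0. For ACLY, ACACA, FASN and SCD the windows had medians of -0.07, -0.04, 0.05 and 0.20, and all 4 genes lay well below them. The part of such windows in the result was not tested.

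**Figure D3:**
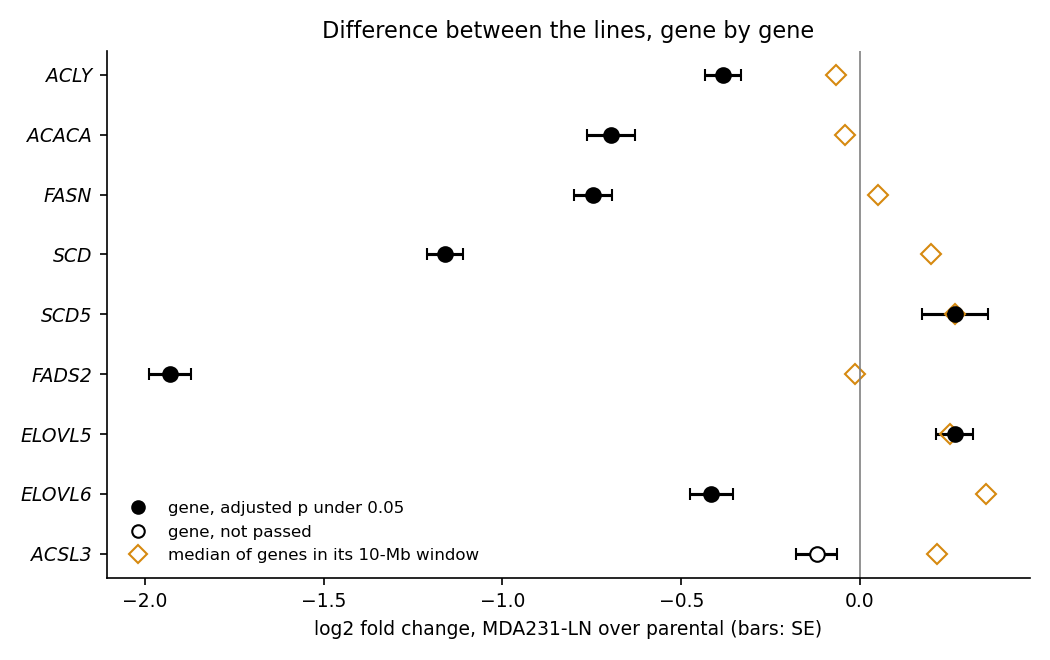
Log2 fold change of MDA231-LN over parental for the 9 measured genes (circles, filled where the adjusted p was under 0.05; bars are SE) and the median of the tested genes in the same 10-Mb window (diamonds). SCD5 and ELOVL5 sit on their diamonds, and FADS2 at -1.93 is farthest from its own.

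Per kb of exon, SCD had the highest level of the 9 genes in both lines, at 136 ± 3.30 CPM per kb in MDA231-LN and 304 ± 12.1 CPM per kb in the parental line (SD, n = 3 each). In MDA231-LN the order went on with ACLY (98.1), ELOVL5 (84.7), FASN (77.3), ACSL3 (18.9), ELOVL6 (12.3), FADS2 (11.1), ACACA (8.75) and SCD5 (8.32 CPM per kb). Only ACACA and SCD5 overlapped among neighbours in that order. In the parental line it went on with FASN (130), ACLY (128), ELOVL5 (70.6), FADS2 (42.2), ACSL3 (20.5), ELOVL6 (16.4), ACACA (14.2) and SCD5 (6.93 CPM per kb), and only FASN and ACLY overlapped. By this measure FADS2 stood at rank 7 in MDA231-LN and rank 5 in the parental line. Because introns were counted as well, the order depends on the length used. Per kb of whole span FADS2 stood at rank 5 in MDA231-LN, where it overlapped ACSL3, and at rank 4 in the parental line, and FASN stood at rank 2 in MDA231-LN in place of 4.

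Within enzyme families, shares of the CPM per exonic kb compare paralogs inside one library; their size depends strongly on the length used. SCD5 held 5.77 ± 0.572% of the SCD and SCD5 sum in MDA231-LN and 2.23 ± 0.138% in the parental line (SD, n = 3 each). Per kb of span that share was 0.507% in MDA231-LN and 0.189% in the parental line. ACACB, the carboxylase of the mitochondrial surface, held 11.4 ± 1.30% beside ACACA in MDA231-LN and 7.49 ± 0.946% in the parental line (SD, n = 3 each), at levels of 16.4 CPM in MDA231-LN and 16.7 CPM in the parental line. Per kb of span ACACB held 23.3% in MDA231-LN and 16.1% in the parental line. FADS2 held 63.5 ± 2.25% of the FADS2 and FADS3 sum in MDA231-LN and 71.1 ± 2.90% in the parental line (SD, n = 3 each). Per kb of span it held 43.2% in MDA231-LN and 51.8% in the parental line.

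Among elongases, ELOVL5 held 51.5% in MDA231-LN and 53.1% in the parental line, ELOVL6 7.46% in MDA231-LN and 12.3% in the parental line, and ELOVL1, which acts on very long saturated chains, 38.8% in MDA231-LN and 33.4% in the parental line. Per kb of span ELOVL5 held 10.1% in MDA231-LN and 11.7% in the parental line, ELOVL6 1.49% in MDA231-LN and 2.78% in the parental line, and ELOVL1 87.4% in MDA231-LN and 84.6% in the parental line. ELOVL7 was the member with the largest fold, at 14.4 ± 1.28 CPM in MDA231-LN and 4.94 ± 1.22 CPM in the parental line (SD, n = 3 each; log2 fold change 1.55 ± 0.17, SE, adjusted p = 1.25e-08, edgeR). In the ACSL family, ACSL3 held 31.0% in MDA231-LN and 24.7% in the parental line, while ACSL4, which prefers arachidonate, held 51.0% in MDA231-LN and 63.8% in the parental line. ACSL1 held 13.8% in MDA231-LN and 6.61% in the parental line. With either length, none of these shares overlapped between the lines, and the line with the larger share was the same with both. By log2 fold change, ACSL4 was lower (-0.77, beside a window median of -0.74) and ACSL1 higher (0.63), while ACSL3 did not pass.

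**Figure D4:**
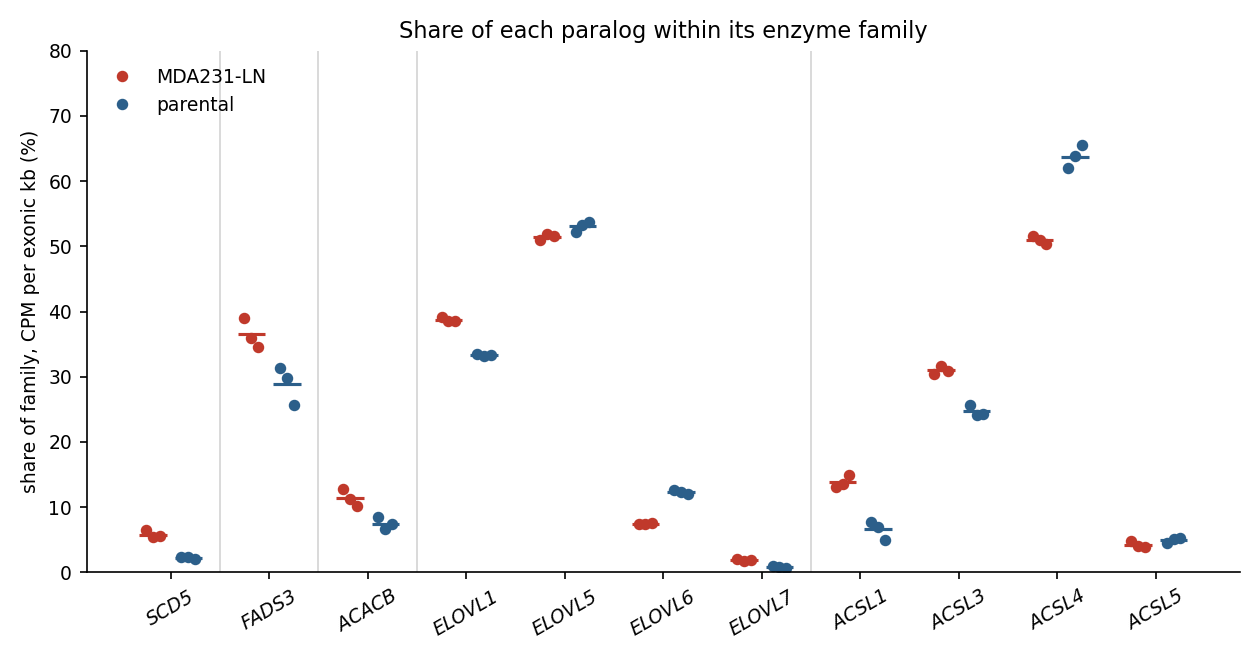
Share of a paralog within its enzyme family, in percent of the family's CPM per exonic kb; each point is 1 library (MDA231-LN in red, left, and parental in blue, right), each bar a mean of 3, and vertical lines separate families. ACSL4 holds 51.0% in MDA231-LN and 63.8% in the parental line, and SCD5 5.77% in MDA231-LN and 2.23% in the parental line.

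Some regulators of lipid synthesis were lower in MDA231-LN and others higher. SREBF1 had 161, 146 and 156 CPM in MDA231-LN, against 295, 295 and 274 CPM in the parental line. Every MDA231-LN library was below every parental one, with a log2 fold change of -0.90 ± 0.06 (SE, adjusted p = 2.82e-13, edgeR); the counts do not separate its SREBP-1a and SREBP-1c forms. SREBF2, the regulator of cholesterol genes, averaged 199 ± 4.49 CPM in MDA231-LN and 251 ± 2.97 CPM in the parental line (SD, n = 3 each; log2 fold change -0.34). SCAP, which escorts SREBPs out of the endoplasmic reticulum, and INSIG1, which holds them there and is itself an SREBP target, were also lower (log2 fold changes -0.25 and -0.35). INSIG2 was slightly higher (0.23), as were MLXIPL, the glucose-responsive factor ChREBP, at a low level of 3.93 CPM in MDA231-LN and 2.49 CPM in the parental line (0.66), and NR1H2, a liver X receptor (0.43). The other liver X receptor, NR1H3, did not pass (-0.16, adjusted p = 0.304, edgeR). The calls of INSIG2 and MLXIPL were weak: when 1 library was left out at a time, INSIG2 lost its call in 5 of 6 cases (all but MDA231-LN replicate 3; highest adjusted p = 0.239, edgeR) and MLXIPL in 4 of 6 (parental replicates 1 and 2, MDA231-LN replicates 2 and 3; highest adjusted p = 0.204, edgeR). Of 21 listed regulators 20 were tested: 9 were lower, 6 higher and 5 did not pass, with a median log2 fold change of -0.14. Over all tested genes 31.2% passed as lower and 31.6% as higher.

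Among other enzymes and suppliers of synthesis, 15 of 16 were tested, of which 7 were lower, 5 higher (CS, ME1, MCAT, MECR and OLAH) and 3 did not pass. Their median log2 fold change was -0.03, and over all tested genes 31.2% passed as lower and 31.6% as higher. ME1, a source of NADPH, was higher at a log2 fold change of 0.50. OLAH, the thioesterase that releases medium chains from FASN, was higher at a very low level, 0.715 CPM in MDA231-LN and 0.191 CPM in the parental line (log2 fold change 1.84), and lost its call without parental replicate 1 or 2 or MDA231-LN replicate 1 (highest adjusted p = 0.112, edgeR). MCAT and MECR, enzymes of the separate mitochondrial synthesis route, were higher (0.30 and 0.68), MCAT not without parental replicate 3 or MDA231-LN replicate 2 (highest adjusted p = 0.083, edgeR).

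Of 17 other elongation and desaturation genes 12 were tested: 7 were lower and 2 higher (ELOVL1 and ELOVL7), with a median log2 fold change of -0.30. For this list and the next, the shares over all tested genes were 31.2% lower and 31.6% higher. The 7 lower genes were FADS3, the dehydratases HACD1, HACD2 and HACD3 and the reductase TECR of the elongation cycle, and the electron carriers CYB5A and CYB5B that serve desaturases. TECR (-0.53), CYB5A (-0.85) and ELOVL1 (0.53) were near the medians of their 10-Mb windows (-0.45, -0.81 and 0.52). HACD3 (-0.77) had a window median of -0.42 and ELOVL7 (1.55) one of -0.51. For FADS3, HACD1, HACD2 and CYB5B the window medians were -0.01, -0.05, -0.07 and -0.04. The part of such windows in these differences was not tested. CYB5B did not pass without MDA231-LN replicate 1 (adjusted p = 0.0833, edgeR) or with upper-quartile scaling. Another gene covers 61.6% of the exonic bases of TECR, and HSD17B12, the ketoreductase of the same cycle, could not be measured. Of 14 other acyl-CoA synthetases 10 were tested, with 4 lower, 2 higher and a median of -0.03. ACSF2 was lowest by fold, at 10.2 ± 0.804 CPM in MDA231-LN and 31.2 ± 3.53 CPM in the parental line (SD, n = 3 each; log2 fold change -1.61). SLC27A1, a fatty acid transport protein whose exons are 78.6% covered by another gene, was also lower (-1.43). SLC27A2 was higher (1.26) at 1.13 CPM in MDA231-LN and 0.466 CPM in the parental line, a call that did not hold without parental replicate 1 or 2 or MDA231-LN replicate 1 or 3.

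The cholesterol genes shared the direction of the fatty acid genes in most tested members: of 22 listed, 20 were tested, 14 were lower, 2 higher and 4 did not pass, with a median log2 fold change of -0.56. The shares over all tested genes were 31.2% lower and 31.6% higher. PMVK (-1.30), HSD17B7 (-1.21) and FDPS (-1.03) were at least 2-fold lower, in windows whose medians were -0.97, -0.60 and -0.97.

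Genes that take up and bind fatty acids went the other way where they could be tested. Of 12 listed 7 were tested and all 7 passed as higher in MDA231-LN, against 31.6% of all tested genes. In 3 of them the rise was at least 2-fold, which held for 13.0% of all tested genes. LPL, the lipase that frees fatty acids from lipoproteins, had 17.8, 17.6 and 19.4 CPM in MDA231-LN, against 0.914, 0.634 and 0.375 CPM in the parental line. Every MDA231-LN library was far above every parental one (log2 fold change 4.84 ± 0.22, SE, adjusted p = 4.52e-16, edgeR). MFSD2A, a transporter of lysolipids that carry polyunsaturated fatty acids, averaged 23.2 ± 1.74 CPM in MDA231-LN and 7.55 ± 1.42 CPM in the parental line (SD, n = 3 each; log2 fold change 1.62). FABP3, a cytosolic carrier, averaged 3.34 CPM in MDA231-LN and 1.60 CPM in the parental line (1.05). The others were FABP5, VLDLR, CAV1 and DBI, at 0.14 to 0.45. VLDLR lost its call in 5 of 6 cases with 1 library left out (all but parental replicate 3; highest adjusted p = 0.326, edgeR) and CAV1 in 4 of 6 (parental replicates 1 and 3, MDA231-LN replicates 1 and 2; highest adjusted p = 0.118, edgeR), so that 5 or 6 of the 7 then passed. CD36 was at 0.0171 CPM in MDA231-LN and 0.252 CPM in the parental line and was not tested.

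Genes that store or burn fatty acids showed no common direction. With TMM scaling 31.2% of all tested genes passed as lower and 31.6% as higher. Of 28 glycerolipid and storage genes 22 were tested, 8 lower and 5 higher with TMM scaling and 6 lower and 8 higher with upper-quartile scaling, with a median log2 fold change of -0.08 with TMM. PLIN4, a lipid droplet coat protein, was higher (1.25) and DGAT2, which completes triglycerides, lower (-1.11, beside a window median of -1.48). Of 31 oxidation genes 28 were tested, 11 lower and 5 higher with TMM scaling and 9 lower and 10 higher with upper-quartile scaling, with a median of -0.08 with TMM. CPT1C, a brain-type member of the carnitine acyltransferase family, was the one changed by at least 2-fold (-1.01).

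**Figure D5:**
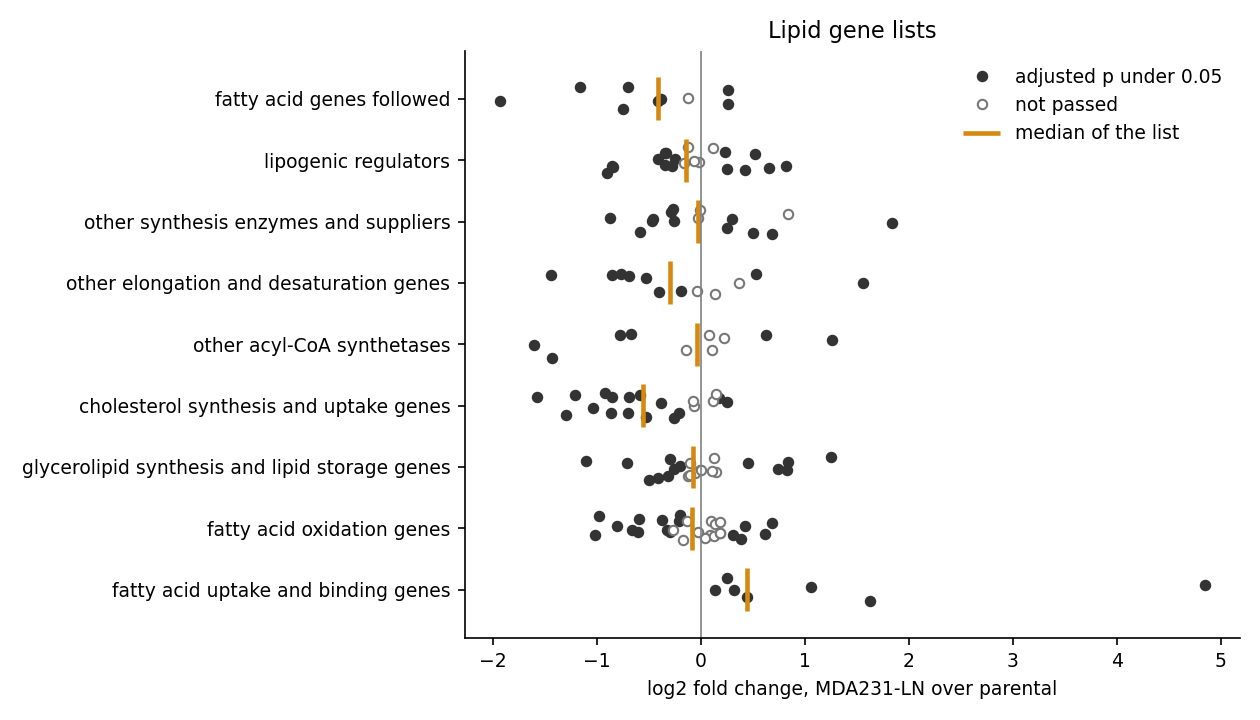
Log2 fold change of MDA231-LN over parental for each tested gene of 9 lists (filled where the adjusted p was under 0.05) with the median of each list as a bar; vertical positions within a list are random. The medians are -0.42 for the fatty acid genes followed here, -0.56 for cholesterol genes and 0.45 for uptake and binding genes, where LPL stands at 4.84.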

How the data were processed

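RNA of both lines was sequenced as pairs of 150-base reads, per the labels. Per the submitters' processing notes reads were aligned to GRCh38 with STAR. The deposited values are raw counts for 61541 genes. Per the file headers, featureCounts 2.0.1 made them from Ensembl release 105 over whole gene spans, without strand and without fragments shared between genes; the spans of 38748 genes overlap at least 1 other gene. Symbols were matched for 61369 genes, and exonic lengths came from GENCODE 29.

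From the counts, edgeR 4.0.16 (R 4.3.3) was run with TMM scaling, filterByExpr, the quasi-likelihood test and Benjamini-Hochberg adjustment over 14176 genes, threshold 0.05. The script was tested on simulated data. Neighbours are tested genes starting in the same fixed 10-Mb window of a chromosome, which is not centred on the gene. Alternatives were RLE and upper-quartile scaling, other filters, DESeq2 1.42.0, voom of limma 3.58.1, a replicate block, 1 library left out at a time, a threshold of 0.01, subtraction of the neighbours' median, and span length.

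The genes and lists were chosen with earlier results of these data known. All 10 genes and 8 regulators are named; from each other list up to 4 genes with the smallest adjusted p among those changed at least 2-fold are named, otherwise up to 2, and paralogs where a share is given. A few results that this rule would include are left out. Python 3.11.15 with pandas 2.3.3, scipy 1.17.1 and matplotlib 3.10.9 did the rest.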

Additional observations from a re-analysis of the deposited data

How the results depend on the processing

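Of 404 values recomputed under alternatives, 369 kept their direction and their side of the threshold or stayed within the allowed range, 32 moved, 1 lost its call, 1 gained one and 1 reversed. The reversal was SCD5, at -0.000968 once the median of its neighbours was subtracted. ACLY, ACACA, FASN, SCD, FADS2 and ELOVL6 passed as lower under every alternative with a test. The number of these genes called higher was 1 to 2 when each library was left out (1 without MDA231-LN replicate 1, where SCD5 lost its call) and 1 at an adjusted p under 0.01, where SCD5 again did not pass. Over the alternatives the adjusted p of SCD5 ran from 9.09e-04 to 0.114 and that of ACSL3 from 0.0359 to 0.893, with a log2 fold change of -0.0094 for ACSL3 under upper-quartile scaling. Upper-quartile scaling gave 5415 higher and 3603 lower calls over all tested genes, against 4482 higher and 4422 lower with TMM. Span in place of exonic length changed the size of the family shares given here, and not the line with the larger share. Deviations from the mean of each line had correlations of -0.00394, 0.00241 and -0.0526 between libraries with the same number. Between libraries with different numbers they ran from -0.0437 to 0.0457. With 3 libraries per line, such values cannot exclude that equal numbers share a day or batch, which the labels do not state. With the replicate block 6 of these genes were lower and 2 higher, and 8591 of all tested genes passed. Genes under about 1 CPM, such as OLAH and SLC27A2, rest on few counts. Fragments without molecular identifiers are not independent molecules.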
